A study of Danio rerio with 10 samples.

Results

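The collagen genes of the zebrafish (Danio rerio) were examined in embryos that carry mutations in a pair of RNA-binding protein genes. Members were taken by symbol: col, a type number from 1 to 28, the letter a and a digit, with the biotype protein_coding. The rule found 54 of the 32266 genes in the table. For 2 of them, col4a3bpa and col4a3bpb, the gene name table gives CERT1, the ceramide transporter. They are not collagens and are described apart, which leaves 52 collagen genes of 19 types under 49 symbols, since col5a3b, col6a3 and col19a1 stand on 2 lines each. Of the 10 libraries, 5 came from double mutants, in which rbpms2a and rbpms2b are both mutant, and these are called mutants. The other 5 came from control siblings, labelled wt, whose single genotypes were not used here. Embryos were assigned to a group by how they looked. Each library held polyA RNA of 10 pooled embryos, taken whole at 33 hours after fertilization, so all tissues are mixed. Libraries of both groups are numbered 1, 2, 3, 4 and 6, and values per library are given in that order.

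Collagens are secreted proteins whose chains wind into triple helices, for which glycine must recur along the chain and many prolines are hydroxylated. Fibrillar collagens (types I, II, III, V, XI, XXIV and XXVII) form the rope-like fibrils of skin, tendon, notochord sheath and cartilage. Collagens of the FACIT class, such as types IX, XII and XIV, bind to the surface of those fibrils. Type IV forms the sheet of basement membranes, type VI forms beaded filaments, type VII anchors the epidermis, and type XVII spans the membrane of basal epidermal cells. In the zebrafish embryo the notochord, the epidermis, the fin folds and the fibroblasts of the somites are known sources of collagen, and cartilage and bone form later.

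Library totals were 29.1 to 35.2 M counts in mutants and 21.5 to 36 M counts in control siblings (M, 1000000 counts). Levels are given as CPM, counts per 1000000 counts after scaling of the libraries, for comparisons of a gene between libraries. FPKM, which also divides by a gene length, serves for comparisons between genes. The deposited FPKM did not always follow CPM between libraries, and the sources used here do not say why. A varying gene length alone cannot be the reason, since col10a1b had libraries with 0 counts but at least 0.01 FPKM in all. Col14a1a averaged 82.2 CPM in mutants and 84.4 CPM in control siblings, but 15.42 FPKM in mutants and 15.05 FPKM in control siblings. The targeted gene rbpms2a had 2.42, 2.93, 3.00, 3.92 and 3.58 CPM in mutants and 5.01, 4.60, 4.25, 7.05 and 5.31 CPM in control siblings, with every mutant library below every control library. Its log2 fold change was -0.73 (SE 0.171, edgeR adjusted p 1.00; with the replicate block, adjusted p 0.00741). Rbpms2b had 11.99, 11.98, 12.7, 22.2 and 18.3 CPM in mutants and 10.3, 11.8, 12.5, 18.0 and 18.3 CPM in control siblings, ranges that overlapped, and the level of a mutant transcript need not differ, so it does not check the labels. Nothing in the labels says that the pools came from separate crosses, so p-values measure the spread between these pools.

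No collagen gene passed the test for a difference between mutants and control siblings, among the 49 that passed the filter on low counts. In edgeR's quasi-likelihood test, 0 of 49 had a Benjamini-Hochberg adjusted p under 0.05 (0.00481% of all 20802 tested genes did), and 0 of 49 had an unadjusted p under 0.05 (1.95% of all genes, and 1.30% in the higher direction); the smallest was 0.092. With the replicate number as a block in the model, 0 of 49 passed the adjusted threshold (0.255% of all genes). The block moved the unadjusted count to 5 of 49, or 10.2%, against 10.5% of all genes. The 5 were col9a1b, col9a2, col9a3, col11a2 and col19a1, all higher in mutants, a direction and threshold that 5.67% of all genes shared. DESeq2, limma-voom and limma-trend also called 0 of the 49 (6, 1 and 0 to 2 of all tested genes). For 0 of 49 did the CPM ranges of the groups part (0.466% of all genes). Since whole embryos were pooled, fewer cells of a type and less RNA per cell could not have been told apart.

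The size of change that the data leave room for was small for most members, as it was for most tested genes. The median log2 fold change (mutants over control siblings) of the 49 genes was 0.017, beside 0.0022 over all tested genes, with 33 genes above 0 and 16 below. Without single libraries this median ran from -0.027 (without mutant 4) to 0.051 (without control 4), so its sign hung on single libraries. The median absolute change was 0.049 log2 units, beside 0.073 over all genes, and 46 of the 49 were under 0.2. The 95% interval of the change lay within 0.5 log2 units of 0, that is within 1.41-fold, for 32 of 49 collagens (65.6% of all tested genes). With the replicate block this held for 45 of 49 (78.3% of all genes). The 4 exceptions under the block, named after their values were seen, were col5a2b, the second line of col19a1, the longer col19a1 line and the second line of col5a3b.

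**Figure D1:**
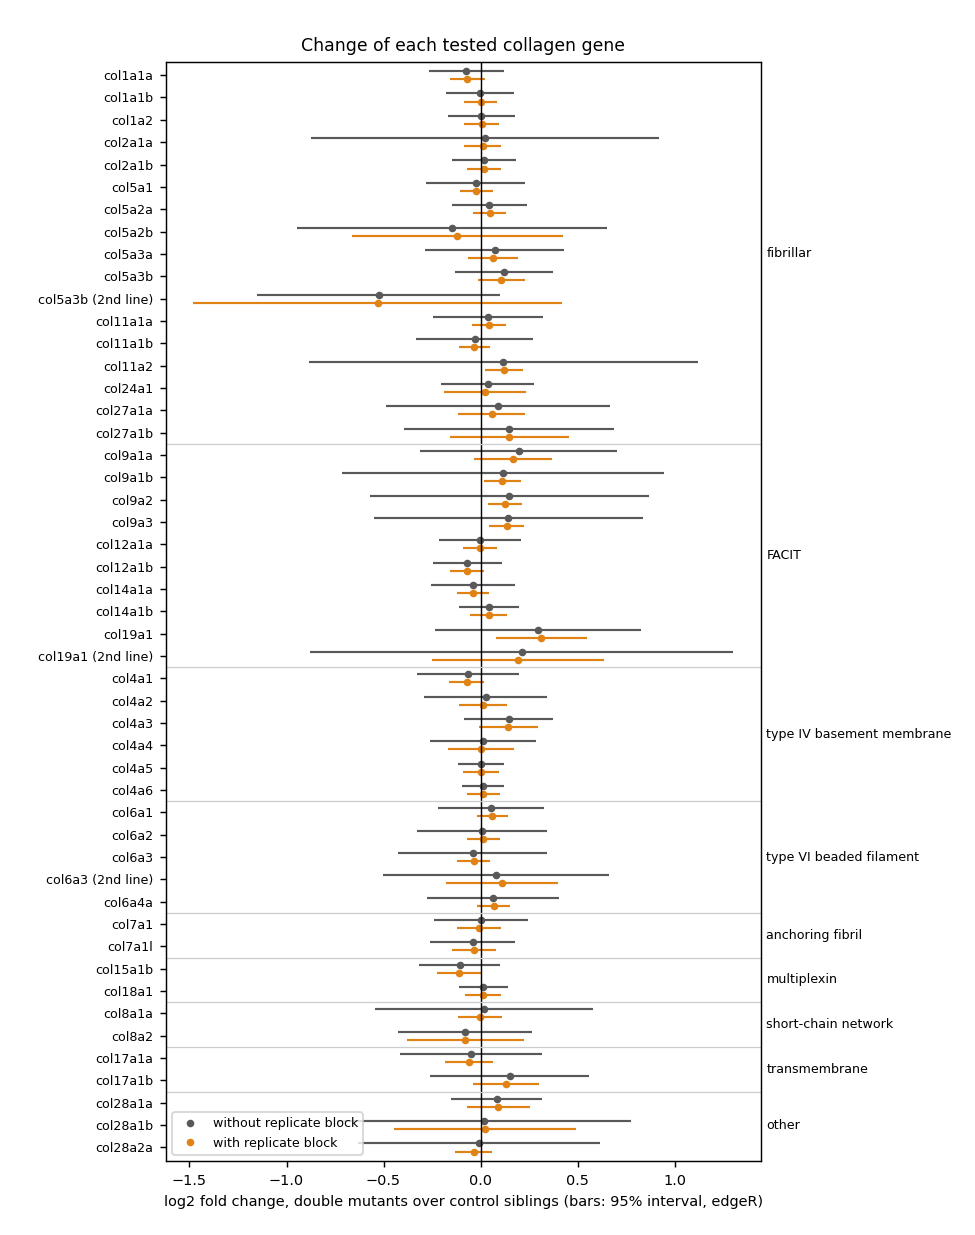
Log2 fold change of each of the 49 tested collagen genes, mutants over control siblings, on the x axis, with 95% intervals from edgeR without (grey) and with (orange) the replicate number as a block; rows are genes grouped by class. The intervals of col2a1a and col11a2 are wide without the block and narrow with it.

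Taken over all 52 genes, collagen RNA made up 1.26 to 1.56% of the counts in mutants and 1.25 to 1.59% in control siblings. The summed level was 12375, 13569, 13063, 15586 and 15558 CPM in mutants and 12325, 12995, 12838, 16167 and 16166 CPM in control siblings. The means were 14030 ± 1470 CPM in mutants and 14100 ± 1904 CPM in control siblings (SD, n = 5 each), with ranges that overlapped almost fully. Libraries 4 and 6 were the highest in both groups and library 1 the lowest. Per length, 6 members averaged over 100 FPKM, 25 lay between 10 and 100, 13 between 1 and 10, and 8 under 1 FPKM.

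**Figure D2:**
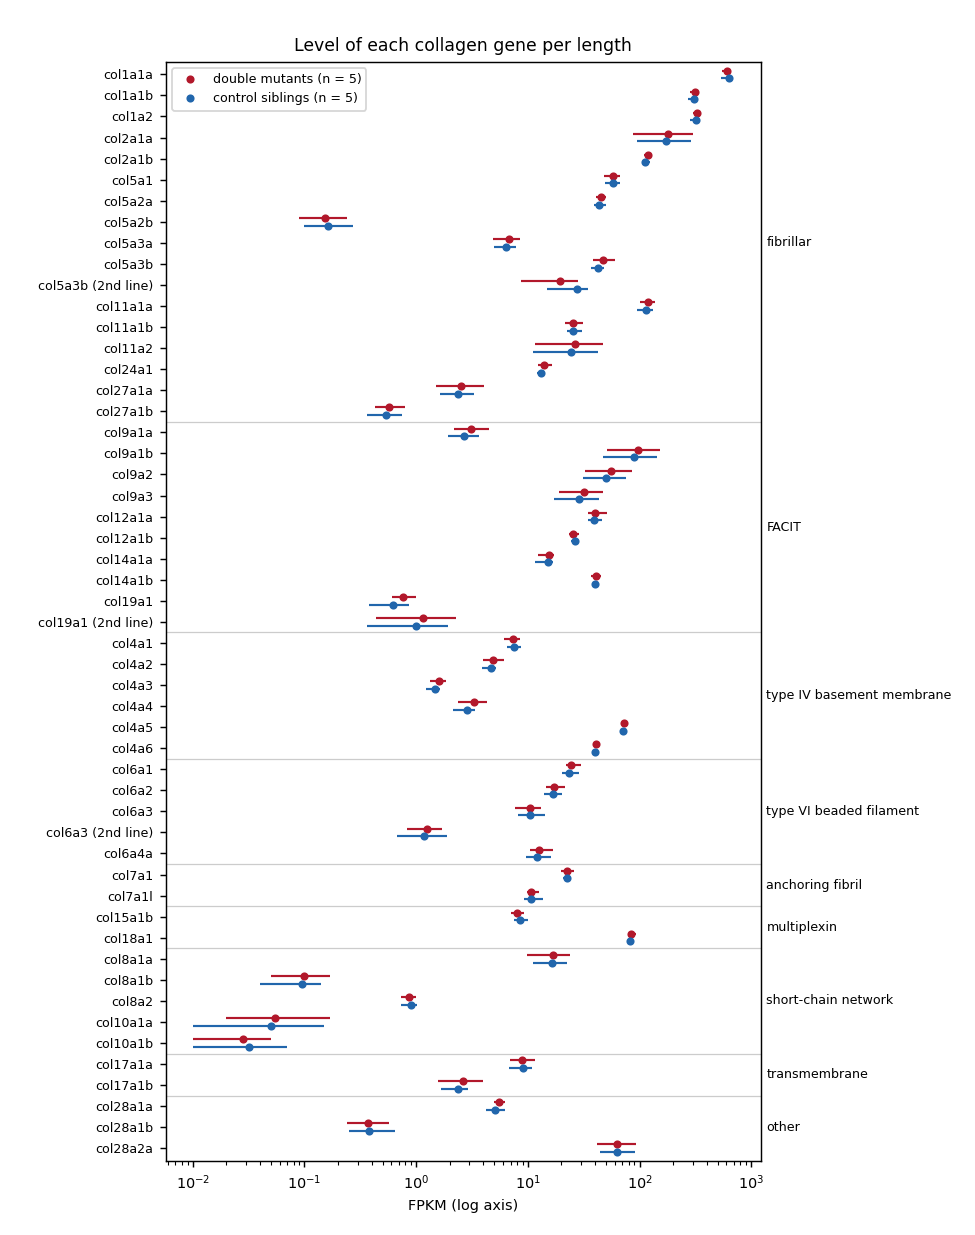
Deposited FPKM of each of the 52 collagen genes (x axis, log scale), with points for the mean of 5 libraries and lines from the lowest to the highest library, mutants in red above control siblings in blue. The 3 type I genes lead, and the lines of the 2 groups overlap for every gene.

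Type I, the main fibrillar collagen of skin and tendon, held 47.9% of collagen CPM in mutants and 48.9% in control siblings. Col1a1a, which with its duplicate col1a1b codes for the first type I chain, had 3035, 3438, 3282, 3509 and 3577 CPM in mutants and 2958, 3510, 3275, 3958 and 4036 CPM in control siblings. Mutants 4 and 6 lay below controls 4 and 6, while the other 3 pairs differed by less than 100 CPM. Its log2 fold change was -0.075 (SE 0.0890, unadjusted edgeR p 0.417), with a blocked interval of -0.16 to 0.024. Col1a1b averaged 1687 ± 133 CPM in mutants and 1689 ± 167 CPM in control siblings (SD, n = 5 each), and its log2 fold change was -0.0020 (95% interval -0.18 to 0.17). Col1a2, the other type I chain, averaged 1640 ± 117 CPM in mutants and 1636 ± 161 CPM in control siblings (SD, n = 5 each), a log2 fold change of 0.0034 (95% interval -0.17 to 0.18). Per length, col1a1a stood at 602 ± 31.2 FPKM in mutants and 627 ± 67.4 FPKM in control siblings, and in the mean over all libraries it ranked 196th among protein-coding genes, before col1a2 at 288th and col1a1b at 296th. Counts of col1a1a and col1a1b carried fractions in all 10 libraries, as 14 of the 52 collagens did. Fractions are a sign of reads divided between features but do not say between which. The split between these duplicates is uncertain.

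The type II genes, which make the chief fibril of the notochord sheath and of cartilage, behaved unlike each other across libraries. Col2a1a had 717, 493, 598, 1710 and 1550 CPM in mutants and 757, 532, 536, 1667 and 1495 CPM in control siblings. Libraries 4 and 6 of both groups stood above all others and libraries 2 and 3 lowest, so that the highest was 3.47 times the lowest, while the groups overlapped throughout. Its duplicate col2a1b had 483, 562, 517, 558 and 576 CPM in mutants and 481, 508, 507, 586 and 582 CPM in control siblings, and here the highest library was 1.22 times the lowest. The log2 fold changes between the groups were 0.023 for col2a1a, with an interval of -0.87 to 0.92, and 0.017 for col2a1b, with -0.15 to 0.18. With the replicate block the interval of col2a1a narrowed to -0.083 to 0.11.

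Type V and type XI chains enter the core of type I and type II fibrils and set their width. Col5a1 averaged 508 ± 69.7 CPM in mutants and 517 ± 81.3 CPM in control siblings, and col5a2a 222 ± 20.8 CPM in mutants and 215 ± 24.3 CPM in control siblings (SD, n = 5 each); their log2 fold changes were -0.025 and 0.045. Of the col5a2 duplicates, col5a2b was the minor copy per length, at 0.152 ± 0.0597 FPKM in mutants and 0.162 ± 0.0698 FPKM in control siblings, whereas col5a2a stood at 45.6 ± 3.81 FPKM in mutants and 43.8 ± 4.25 FPKM in control siblings. Col5a3b on its long line (ENSDARG00000101816) had 231, 308, 239, 198 and 198 CPM in mutants and 222, 227, 240.5, 198 and 192 CPM in control siblings. Mutant 2 was the highest library and control 3 the next. The log2 fold change of 0.12 (unadjusted edgeR p 0.317) was -0.0030 without mutant 2. Col5a3a, the other duplicate, ranged over 32.5 to 56.4 CPM in mutants and 33.5 to 51.2 CPM in control siblings.

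The largest change among all members was that of the second line labelled col5a3b (ENSDARG00000098567), a model of 539 bases for which the gene name table gives si:ch1073-286c18.5. It had 9.77, 6.88, 7.02, 3.03 and 7.37 CPM in mutants and 12.3, 7.79, 5.28, 11.9 and 11.8 CPM in control siblings. Mutant 4 was the lowest library and controls 1, 4 and 6 the highest, but control 3 lay below 4 of the 5 mutants. The log2 fold change was -0.53 (SE 0.288, unadjusted edgeR p 0.0920; exact permutation test on CPM, two-sided, p = 0.103), lower in 4 of 5 pairs. The blocked interval was -1.48 to 0.42. Its counts were not whole in 9 of 10 libraries, so the level is uncertain.

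Among type XI genes, col11a1a averaged 759 ± 118 CPM in mutants and 738 ± 132 CPM in control siblings and col11a1b 208 ± 39.7 CPM in mutants and 212 ± 36.8 CPM in control siblings (SD, n = 5 each), with log2 fold changes of 0.040 and -0.030. Col11a2 had 115, 74.8, 92.9, 301 and 254 CPM in mutants and 122, 67.8, 75.5, 278 and 232 CPM in control siblings, the widest spread over libraries among members above 10 CPM (4.44-fold from lowest to highest). As for col2a1a, libraries 4 and 6 were highest and 2 and 3 lowest in both groups, and the groups overlapped. The log2 fold change of col11a2 was 0.12 (interval -0.89 to 1.12); with the block it was 0.12 (interval 0.023 to 0.22, unadjusted edgeR p 0.0183, adjusted p 0.351), higher in 4 of 5 pairs. Of the minor fibrillar genes, col27a1a, whose product forms thin fibrils of cartilage and notochord, averaged 8.78 ± 3.52 CPM in mutants and 8.29 ± 2.46 CPM in control siblings, and col27a1b 2.62 ± 0.760 CPM in mutants and 2.38 ± 0.760 CPM in control siblings. Col24a1, on a model of 645 bases, averaged 6.03 ± 0.803 CPM in mutants and 5.86 ± 0.348 CPM in control siblings (SD, n = 5 each).

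Of the FACIT class, type IX coats type II fibrils and is made of 3 different chains, whose genes moved together over the libraries. Col9a1b had 175, 135, 171, 402 and 399 CPM in mutants and 182, 122, 148, 383 and 349 CPM in control siblings. Col9a2 had 115, 96.0, 114, 256 and 241 CPM in mutants and 117, 91.5, 100.2, 229 and 206 CPM in control siblings. Col9a3 had 67.1, 55.3, 69.5, 137 and 141 CPM in mutants and 67.1, 50.03, 60.2, 129 and 119 CPM in control siblings. In each of the 3 genes the libraries numbered 4 and 6 stood above all others, in mutants as in control siblings, and the mutant was the higher library in 4 of 5 pairs. The log2 fold changes were 0.12, 0.15 and 0.14 (SE 0.381, 0.331 and 0.320). With the block they were 0.11, 0.13 and 0.14, with intervals of 0.019 to 0.21, 0.036 to 0.21 and 0.044 to 0.23 and adjusted edgeR p-values of 0.370, 0.286 and 0.239. Col9a1a, the minor duplicate of col9a1b (2.89 against 93.3 FPKM over all libraries), averaged 7.85 ± 2.77 CPM in mutants and 6.89 ± 1.74 CPM in control siblings (SD, n = 5 each), a log2 fold change of 0.20 with an unadjusted edgeR p of 0.419.

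Type XIX, a minor FACIT collagen, had the largest change after the second col5a3b line. On its long line (ENSDARG00000076163) col19a1 had 3.92, 4.05, 4.48, 5.97 and 6.71 CPM in mutants and 2.96, 2.47, 3.92, 5.81 and 5.41 CPM in control siblings, higher in the mutant of 5 of 5 pairs although the ranges overlapped. The log2 fold change was 0.30 (SE 0.245, unadjusted edgeR p 0.25; exact permutation test, two-sided, p = 0.294). Both of these tests leave the replicate number out. With the block it was 0.31 (interval 0.079 to 0.55, unadjusted edgeR p 0.0117, adjusted p 0.307). The second line of col19a1 (ENSDARG00000096073) had 0.863, 0.414, 0.805, 1.29 and 2.29 CPM in mutants and 0.822, 0.333, 0.513, 1.38 and 1.95 CPM in control siblings, again highest in libraries 4 and 6 of both groups.

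Types XII and XIV, which link fibrils to other matrix, were steadier. Col12a1a averaged 276 ± 32.1 CPM in mutants and 276 ± 33.5 CPM in control siblings and col12a1b 296 ± 27.99 CPM in mutants and 311 ± 28.4 CPM in control siblings, with log2 fold changes of -0.0036 and -0.069 (intervals -0.21 to 0.21 and -0.25 to 0.11). Col14a1a averaged 82.2 ± 9.56 CPM in mutants and 84.4 ± 9.86 CPM in control siblings and col14a1b 72.3 ± 6.59 CPM in mutants and 70.2 ± 3.77 CPM in control siblings (SD, n = 5 each throughout), with -0.039 and 0.044. Both libraries numbered 6 were the lowest of their group for col14a1a, at 65.4 CPM in mutant 6 and 68.1 CPM in control 6.

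The 6 type IV genes stand in 3 neighbouring pairs in the protein-coding gene order of a RefSeq table (assembly GRCz12tu): col4a1 beside col4a2, col4a3 beside col4a4 and col4a5 beside col4a6. At this stage col4a5 and col4a6 were the abundant pair. Col4a5, which in zebrafish is needed for axons to keep to their layer of the tectum, had 447, 483, 429.5, 447 and 426 CPM in mutants and 464, 430.1, 440.0, 441 and 456 CPM in control siblings. Col4a6 had 333, 337, 327, 326 and 311 CPM in mutants and 328, 314, 332, 320.3 and 325 CPM in control siblings. These were the steadiest collagens, with highest over lowest library of 1.13 and 1.08. Their log2 fold changes were 0.0014 (interval -0.12 to 0.12) and 0.013 (interval -0.094 to 0.12). Both genes lie on the chromosome of rbpms2b in that gene order, 47 and 46 protein-coding genes away.

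Per length the other type IV genes were lower, with means over all libraries of 7.44 FPKM for col4a1, 4.79 for col4a2, 1.54 for col4a3 and 3.07 for col4a4, where col4a5 had 71.7 and col4a6 40.4 FPKM. Col4a1 and col4a2, which code for the chains found in most basement membranes, averaged 58.6 ± 9.60 CPM in mutants and 61.4 ± 8.69 CPM in control siblings for col4a1, and 24.1 ± 5.18 CPM in mutants and 23.7 ± 3.40 CPM in control siblings for col4a2 (SD, n = 5 each), with log2 fold changes of -0.067 and 0.026. Both were higher in libraries 4 and 6 than in 2 and 3, in mutants and in control siblings. Col4a3 had 14.0, 16.1, 12.5, 13.9 and 11.2 CPM in mutants and 13.4, 12.2, 11.7, 12.9 and 10.8 CPM in control siblings. The mutant was the higher library in 5 of 5 pairs, but the ranges overlapped, and the log2 fold change was 0.14 (interval -0.084 to 0.37, unadjusted edgeR p 0.195). Col4a4 averaged 20.4 ± 4.00 CPM in mutants and 20.3 ± 1.93 CPM in control siblings (SD, n = 5 each), with 0.011.

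Type VI, a collagen of connective tissue around muscle, had col6a1 as its most abundant gene per length, at 24.6 ± 3.40 FPKM in mutants and 23.4 ± 3.73 FPKM in control siblings (SD, n = 5 each). Col6a1 had 116, 120.5, 123, 162 and 145 CPM in mutants and 110.3, 110.0, 116, 158 and 149.5 CPM in control siblings, and col6a2 had 81.7, 87.7, 85.4, 124 and 112 CPM in mutants and 80.0, 83.0, 83.4, 119 and 123 CPM in control siblings. Both were highest in libraries 4 and 6 and overlapped between the groups, with log2 fold changes of 0.053 and 0.0091. Col6a3 on its long line averaged 73.9 ± 16.5 CPM in mutants and 76.1 ± 19.2 CPM in control siblings, and col6a4a 104 ± 20.7 CPM in mutants and 99.4 ± 22.5 CPM in control siblings (SD, n = 5 each), with -0.042 and 0.062. The second line of col6a3 (ENSDARG00000095915), whose counts were not whole in any library, averaged 3.11 ± 0.866 CPM in mutants and 2.95 ± 1.16 CPM in control siblings.

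The epidermal types, like all other collagens, held no gene past the adjusted edgeR threshold (0.00481% of all tested genes without the block, 0.255% with it). Col7a1, the anchoring fibril gene that joins epidermis to the matrix below, had 122, 173, 144, 114 and 120.0 CPM in mutants and 129, 141, 154, 127 and 122 CPM in control siblings, with mutant 2 highest. The log2 fold change of 0.0015 (interval -0.24 to 0.24) was -0.11 without mutant 2. Col7a1l had 41.9, 35.2, 34.6, 34.1 and 34.0 CPM in mutants and 45.5, 32.6, 35.9, 32.2 and 38.9 CPM in control siblings, with library 1 the highest in each group. Col17a1a, a part of the hemidesmosomes of basal epidermal cells, averaged 40.1 ± 9.52 CPM in mutants and 41.5 ± 8.16 CPM in control siblings, and its duplicate col17a1b 9.71 ± 2.54 CPM in mutants and 8.76 ± 1.55 CPM in control siblings (SD, n = 5 each), with log2 fold changes of -0.049 and 0.15.

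Types XV and XVIII are multiplexins, proteoglycans of basement membranes with an endostatin domain. Col18a1 had 442, 501, 446, 431 and 427 CPM in mutants and 444, 447, 444, 434 and 456 CPM in control siblings, with mutant 2 the highest. Its log2 fold change was 0.014 (interval -0.11 to 0.14). Col15a1b had 35.98, 32.0, 32.5, 41.8 and 37.6 CPM in mutants and 45.2, 35.4, 34.0, 41.2 and 38.0 CPM in control siblings, lower in the mutant of 4 of 5 pairs. This was a log2 fold change of -0.11 (interval -0.32 to 0.10; with the block -0.23 to 0.0065).

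Of the short-chain network types, col8a1a, which zebrafish need for the notochord sheath, had 31.2, 20.5, 26.7, 49.0 and 48.1 CPM in mutants and 33.5, 22.8, 26.0, 47.5 and 43.6 CPM in control siblings, with libraries 4 and 6 highest and 2 lowest in both groups. The change was 0.019 log2 units (with the block -0.0035, interval -0.12 to 0.11), while col8a2 averaged 2.41 ± 0.326 CPM in mutants and 2.56 ± 0.419 CPM in control siblings (SD, n = 5 each; -0.082). The 3 members below the filter belong to this class. Col8a1b had 2 to 15 counts in a library, col10a1a 0 to 12 and col10a1b 0 to 2. Type X, a collagen of hypertrophic cartilage and, in zebrafish, of bone-forming cells, was therefore at the edge of detection, although mutant 6 and control 4 had 0.382 and 0.339 CPM of col10a1a where the other libraries had at most 0.0555 CPM.

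Type XXVIII genes, which code for collagens with von Willebrand factor A domains, held 1 abundant gene, col28a2a, at 62.7 FPKM over all libraries. It had 211, 438, 427, 202 and 198 CPM in mutants and 223, 398, 427, 215 and 220.5 CPM in control siblings. Libraries 2 and 3 stood far above the others in both groups, whereas those of col2a1a were the lowest. Its log2 fold change was -0.0063 (interval -0.63 to 0.62; with the block -0.13 to 0.060), and its counts carried fractions in all 10 libraries. Col28a1a averaged 16.0 ± 1.05 CPM in mutants and 15.1 ± 2.45 CPM in control siblings, and col28a1b 1.09 ± 0.445 CPM in mutants and 1.10 ± 0.524 CPM in control siblings (SD, n = 5 each), with log2 fold changes of 0.082 and 0.017.

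The replicate number thus went with larger differences among the collagens than the genotype did. When the variation of log2(CPM + 0.5) over the 10 libraries was divided among number (4 degrees of freedom), genotype (1) and the rest (4), the median collagen had 89.6% in number, 1.17% in genotype and 7.03% in the rest. Over all tested genes the medians were 73.1, 3.63 and 18.1%. The share of number was over 90% for 24 of 49 collagens, beside 16.5% of all genes, and it was larger than the share of genotype in 49 of 49, beside 95.8% of all genes. With 4 degrees of freedom against 1, number would take the larger share in most genes even with no effect of either. These shares are descriptions without a test, chosen after the values were seen.

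The collagens did not all follow the numbers in the same direction. In 26 of 49 all 4 libraries numbered 4 and 6 lay above all 4 numbered 2 and 3, as 18.0% of all tested genes did. Col2a1a, col11a2, the type IX genes, col19a1, the col27a1 pair, col8a1a and the type VI genes col6a1, col6a2, col6a3 and col6a4a were among them. In 6 of 49 they lay below, as 16.0% of all genes did: col5a2b, col5a3a, col5a3b, col7a1, col14a1a and col28a2a. Of the variation of col2a1a, 99.5% went with the number, and of col28a2a 98.9%, whereas col4a5 had 25.5% and col24a1 18.2%. No label says what the replicate number stands for.

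**Figure D3:**
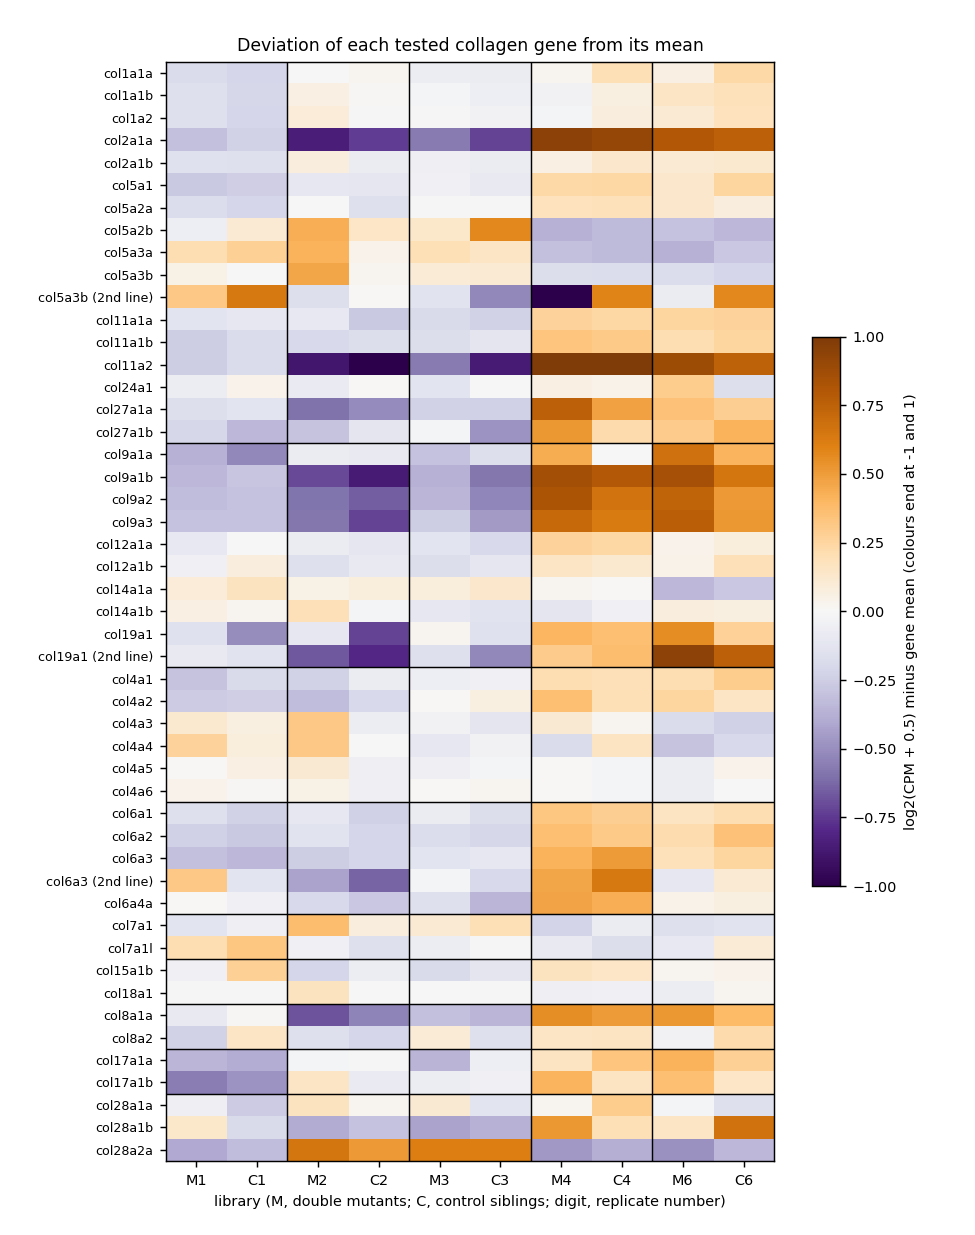
Deviation of log2(CPM + 0.5) from the gene's mean over the 10 libraries (colour, orange above and purple below the mean, ending at -1 and 1), for 49 tested collagen genes (rows, by class) in libraries paired by number, mutant (M) left of control sibling (C). Col2a1a, col11a2, col9a1b, col9a2 and col9a3 turn from purple in libraries 2 and 3 to orange in 4 and 6. Col28a2a does the reverse, and columns of the same number look alike.

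Marker genes of tissues that make collagen were set beside this pattern. Epyc, a small proteoglycan gene of the notochord and cartilage, had 46.2, 35.7, 63.0, 128 and 126 CPM in mutants and 45.0, 34.4, 51.3, 119.8 and 113 CPM in control siblings, with libraries 4 and 6 above all others. Matn3a, a matrilin gene of cartilage matrix, had 13.8, 9.56, 18.6, 52.5 and 52.0 CPM in mutants and 16.6, 11.6, 16.2, 49.6 and 44.9 CPM in control siblings, likewise with libraries 4 and 6 above all others. Epyc and matn3a did not meet the rule for naming genes of the lists. They are examples picked after their values were seen, and the counts over whole lists follow. The 11 notochord markers summed to 1900 to 2070 CPM in mutants and 1820 to 2070 CPM in control siblings. Of these 11, 4 had libraries 4 and 6 above 2 and 3, beside 18.0% of all tested genes, and noto stayed under 1 CPM in all libraries. Of the 11 tested cartilage and neural crest markers 7 did, with sums of 387 to 644 CPM in mutants and 420.0 to 617 CPM in control siblings, and matn1, a marker of mature cartilage, was at 0 to 0.258 CPM. Of the 10 skeletal muscle markers 7 did, with sums of 17200 to 31400 CPM in mutants and 18300 to 36100 CPM in control siblings. Of the 10 epidermal markers 0 did and 6 lay the other way, beside 16.0% of all tested genes. Their sums were 22700 to 34200 CPM in mutants and 24500 to 31000 CPM in control siblings. Sclerotome and fibroblast markers summed to 226 to 275 CPM in mutants and 228 to 261 CPM in control siblings, fin fold markers to 746 to 914 CPM in mutants and 807 to 1080 CPM in control siblings, endothelial markers to 223 to 245 CPM in mutants and 229 to 249 CPM in control siblings and osteoblast markers to 27.9 to 34.2 CPM in mutants and 27.4 to 37.0 CPM in control siblings, and in the last list 5 of 7 were under 1 CPM in every library. Libraries 4 and 6 lay above 2 and 3 in 4 of 13 sclerotome and fibroblast markers and in 3 of 8 fin fold markers. The same held for 0 of 11 endothelial and 0 of 5 tested osteoblast markers (18.0% of all tested genes). They lay below in 1, 2, 1 and 0 markers of these lists, in that order (16.0% of all tested genes). In none of the 8 lists did a gene pass the adjusted edgeR threshold with or without the block. Of all tested genes, 0.00481% passed it without the block and 0.255% with it, so few would be awaited in these lists. At an unadjusted edgeR p under 0.05 with the block (10.5% of all genes, 5.67% in the higher direction), 4 of the 10 epidermal markers were higher in mutants and 0 lower, and 0 of the 8 fin fold markers were higher and 4 lower. Of the other lists, 2 notochord markers were higher and 1 lower, 1 cartilage and neural crest marker was higher and 1 lower, 2 skeletal muscle markers were lower, 1 endothelial and 1 sclerotome and fibroblast marker were higher, and 0 of the 5 tested osteoblast markers passed. The median log2 fold changes of the epidermal and fin fold lists were 0.092 and -0.10 in the unblocked fit. The part of these tissues in the levels of the collagens was not tested.

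Ratios between chains within a library, computed from FPKM, took out the scaling of libraries. They still carry any difference between libraries in how the deposited FPKM was made, which is not known. Of 17 ratios, 0 had ranges that parted the groups. The sum of col1a1a and col1a1b over col1a2 was 2.80, 2.69, 2.76, 2.89 and 2.81 in mutants and 2.86, 2.92, 2.78, 3.02 and 2.92 in control siblings, lower in the mutant of 5 of 5 pairs. The ratio of col1a1a to col1a1b was 1.94, 1.90, 1.92, 2.07 and 1.85 in mutants and 1.96, 2.00, 1.97, 2.17 and 2.05 in control siblings, also lower in 5 of 5. Col11a1a over col11a1b was 5.0, 4.94, 4.52, 4.40 and 4.74 in mutants and 4.90, 4.27, 4.27, 4.37 and 4.61 in control siblings, higher in the mutant of 5 of 5 pairs. The ranges overlapped in all 3 ratios, which were singled out after their values were seen, and no test was made. The reads of duplicates can be divided between them in counting.

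Other ratios were held within narrow limits in both groups. Col4a5 over col4a6 averaged 1.77 ± 0.0566 in mutants and 1.78 ± 0.0476 in control siblings, col9a2 over col9a3 1.72 ± 0.0851 in mutants and 1.74 ± 0.0670 in control siblings, and col6a1 over col6a2 1.45 ± 0.0700 in mutants and 1.41 ± 0.0703 in control siblings (SD, n = 5 each). The ratio of both col9a1 genes to col9a2 averaged 1.79 ± 0.0922 in mutants and 1.80 ± 0.160 in control siblings, so that the 3 type IX chains kept near the same proportion while the level of col9a1b varied 3.30-fold and that of col9a2 2.80-fold over the libraries. In contrast, col2a1a over col2a1b ran over 0.681 to 2.49 in mutants and 0.870 to 2.36 in control siblings, and col11a1a over col11a2 over 2.92 to 9.16 in mutants and 3.11 to 8.61 in control siblings, in step with the replicate number. Neither pair kept a fixed proportion over these libraries.

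**Figure D4:**
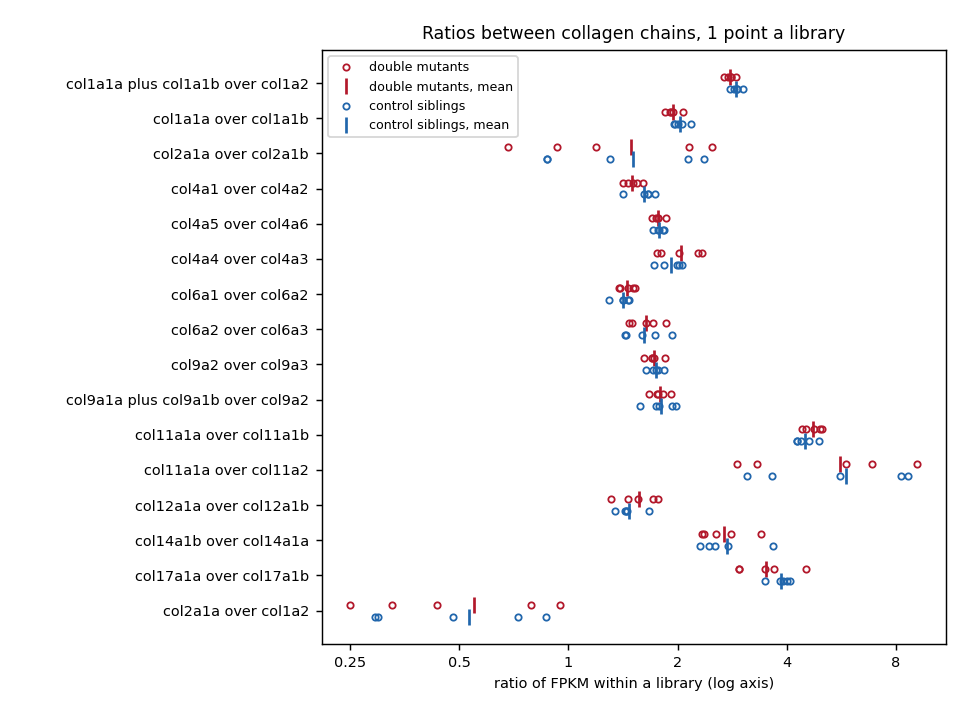
Ratios of FPKM between collagen chains (rows) within each library (x axis, log scale), with 1 open circle a library and a bar for the group mean, mutants in red above control siblings in blue. Most of the ratios drawn cluster tightly, while those with col2a1a or col11a2 spread widely in both groups. Col2a1a over col2a1b ran over 0.681 to 2.49 in mutants and 0.870 to 2.36 in control siblings. Not drawn is col9a1b over col9a1a, which also spread widely, over 19.4 to 39.6 in mutants and 17.7 to 52.3 in control siblings.

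Genes that hydroxylate, fold, export, cleave, cross-link or bind collagen were counted from 6 lists. Of 108 listed genes 98 were found and 87 tested, with a median log2 fold change of -0.029, and 0 passed the adjusted threshold in edgeR without the block (0.00481% of all genes), while 2 of 87 had an unadjusted p under 0.05 (1.95% of all genes). Both were lower in mutants: p4ha1b and sec24c. With the block 1 passed (0.255% of all genes), and 13 of 87 had an unadjusted p under 0.05, 6 higher and 7 lower (10.5% of all genes). DESeq2, limma-voom and limma-trend without the block also called 0 (6, 1 and 0 to 2 of all tested genes). DESeq2 with the block called 2, p4ha1b and fn1b (93 of all tested genes).

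P4ha1b, a catalytic subunit of prolyl 4-hydroxylase, the enzyme that stabilises the collagen helix, was the gene called under the block. It had 28.2, 28.6, 52.6, 27.9 and 23.04 CPM in mutants and 50.3, 58.0, 83.5, 43.3 and 29.8 CPM in control siblings, lower in the mutant of 5 of 5 pairs, with overlapping ranges. The blocked log2 fold change was -0.72 (SE 0.0693, edgeR adjusted p 0.000138), and the adjusted p without the block was 1.00. When any 1 pair was left out of the blocked fit, its adjusted p lay between 1.47e-05 and 0.00505. Its mammalian counterpart is known to be induced by low oxygen. The genes that follow, other than sec24c, were chosen after their values were seen. Of the relatives of p4ha1b, p4ha2 had 17.4, 18.0, 24.7, 15.9 and 17.4 CPM in mutants and 20.3, 21.4, 29.5, 24.2 and 18.7 CPM in control siblings (blocked log2 fold change -0.29, edgeR adjusted p 0.0951), lower in 5 of 5 pairs. P4ha1a had 33.5, 30.1, 33.7, 33.6 and 31.3 CPM in mutants and 31.1, 29.7, 30.5, 28.3 and 29.2 CPM in control siblings (blocked log2 fold change 0.12, edgeR adjusted p 0.408), higher in 5 of 5. The beta subunit gene p4hb averaged 236 ± 17.2 CPM in mutants and 228 ± 10.5 CPM in control siblings (SD, n = 5 each), with an unblocked log2 fold change of 0.051.

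Further along the pathway, sec24c, a gene of the coat that buds cargo from the endoplasmic reticulum, had 90.7, 86.3, 90.5, 93.4 and 91.6 CPM in mutants and 96.3, 97.4, 97.2, 96.9 and 100.3 CPM in control siblings. Every mutant lay below every control, a log2 fold change of -0.11 (SE 0.0473, edgeR unadjusted p 0.0391, adjusted p 1.00; exact permutation test, two-sided, p = 0.00794). It was the 1 gene of the 87 with ranges that parted (0.466% of all genes). Parted ranges always give this smallest permutation p, and parted ranges were among the reasons for naming a gene. The permutation p of sec24c therefore adds no further support. Fn1b, a fibronectin gene, had 262, 439.5, 477, 322 and 336 CPM in mutants and 237, 395, 362, 283 and 298 CPM in control siblings, higher in 5 of 5 pairs (blocked log2 fold change 0.21, edgeR adjusted p 0.0595, DESeq2 adjusted p 0.00762 with the block). Loxl4, a cross-linking enzyme of the lysyl oxidase family, averaged 7.30 ± 2.14 CPM in mutants and 5.72 ± 1.34 CPM in control siblings (SD, n = 5 each; blocked 0.34, edgeR adjusted p 0.136), and itga11a, a subunit of a collagen-binding integrin, 7.69 ± 2.43 CPM in mutants and 9.59 ± 1.87 CPM in control siblings (SD, n = 5 each; blocked -0.34, edgeR adjusted p 0.139). The abundant partners sparc, dcn and postnb had unblocked log2 fold changes of 0.0041, -0.0077 and 0.027. The 19 tested basement membrane partners, laminins and nidogens among them, held 0 genes with an unadjusted edgeR p under 0.05 in either fit. Of all genes, 1.95% passed this without the block and 10.5% with it, so few would be awaited among 19. The partners summed to 2390 to 2650 CPM in mutants and 2400 to 2630 CPM in control siblings.

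**Figure D5:**
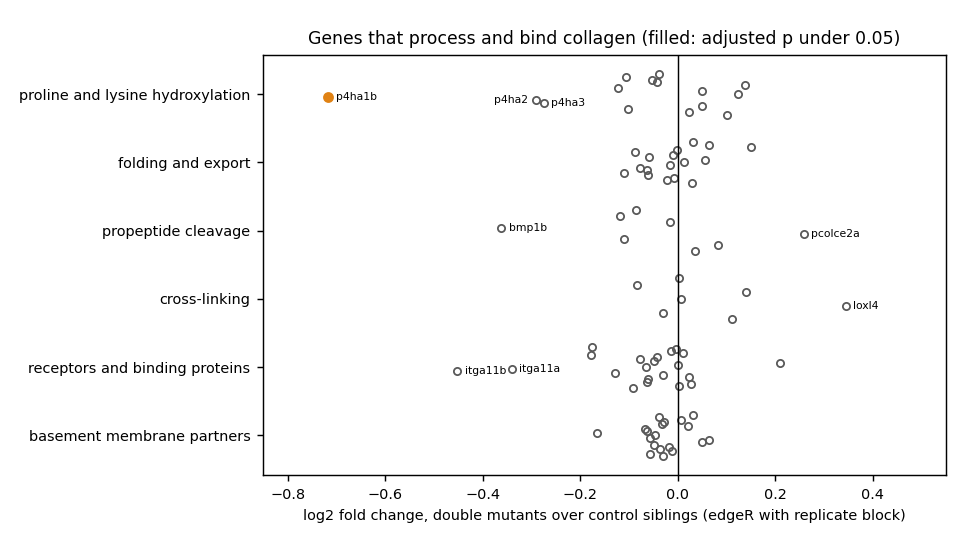
Log2 fold change (mutants over control siblings, x axis) under the replicate block for the 87 tested genes that process or bind collagen, in 6 lists (rows), with 1 circle a gene and names for those beyond 0.25 log2 units. Only p4ha1b, at -0.72, is filled as past the adjusted threshold.

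The pair taken in by the rule for its symbol, the ceramide transporter genes, stood apart from the collagens in function. Col4a3bpa averaged 26.0 ± 3.28 CPM in mutants and 24.5 ± 2.90 CPM in control siblings and col4a3bpb 26.8 ± 1.03 CPM in mutants and 26.4 ± 1.86 CPM in control siblings (SD, n = 5 each), with log2 fold changes of 0.085 (unadjusted edgeR p 0.438) and 0.020 (unadjusted edgeR p 0.773). With them included, the count called was 0 of 51 tested genes.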

How the data were processed

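PolyA RNA of 10 libraries, 5 of double mutants and 5 of control siblings, was measured by the authors, who deposited 1 table. It holds, per the file headers and values, an expected count, estimated and with fractions, per gene and library, and log2 values, log2(FPKM + 0.1) with a lowest value of -3.32. Between 17.8 and 21.6% of the deposited expected counts of a library were not whole. Per the submitters' processing notes, STAR 2.5.3a, RSEM 1.3.0, BWA 0.7.12-r1039, bedtools 2.25.0.64 and the builds GRCz10 and danRer10 were named, with no role given. Which annotation and strand setting the counting used is not given in the sources used here, so overlapping and near-identical genes are uncertain. FPKM was recovered from the deposited log2 values. Groups and numbers came from the sample titles, and columns from the labels' descriptions.

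Expected counts were rounded, filtered with filterByExpr, scaled with TMM and tested with edgeR 4.0.16 (R 4.3.3; robust quasi-likelihood, two-sided), with Benjamini-Hochberg adjustment over all 20802 genes. Alternatives were RLE factors, no filter, DESeq2 1.42.0, limma 3.58.1 (voom, and trend on FPKM), the replicate number as a block, and leaving out libraries. Exact permutation tests used all 252 assignments (smallest p 0.00794) and took no account of the replicate number. Both groups carry the same numbers. Deviations from group means of same-numbered libraries correlated at 0.54 to 0.60 over all tested genes, and other pairs at -0.47 to 0.51, so the numbers were read as pairs. Over the 49 tested collagens same-numbered libraries correlated at 0.73 to 0.92. There mutant 2 with control 3 reached 0.80 and mutant 6 with control 4 reached 0.78, above same-numbered pairs 3 (0.73) and 4 (0.77). The collagens alone thus set number 2 less clearly apart from 3, and 4 from 6. Tested on simulated data over the real genes, the unblocked fit of 20602 genes recovered 70 of 100 genes changed 2-fold and 45 of 100 changed 1.5-fold, with 4 false calls, and the blocked fit of 20664 genes recovered 100 and 82, with 16 false calls. The simulated counts held no effect of the replicate number, and only genes above 1 CPM were changed. The rates of recovery and of false calls may therefore differ for both fits on the real data. Of the members' IDs 52 matched a gene name table.

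Members and lists were chosen with earlier results of these data known. Members named in full were the 2 most abundant per class, duplicate pairs, the 5 largest changes at 1 CPM or more, and any with an unadjusted p under 0.05 unblocked, an adjusted p under 0.05 blocked or ranges that parted, which also held for other lists. The remaining collagens are described so that every member is accounted for. Genes of the lists named outside this rule, epyc and matn3a among them, were picked after their values were seen.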

Additional observations from a re-analysis of the deposited data

Results flagged for a closer look

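In 106 groups of 5 libraries, 2 for each collagen gene and 2 for the summed level, 7 had a single library whose gap to the nearest other exceeded 0.71 of the group's range, where chance alone gives about 5.3. Mutant 1 had 41.9 CPM of col7a1l, above 34.0 to 35.2 CPM in the other mutants; control 1 was also the highest of its group, at 45.5 CPM. Mutant 6 had 65.4 CPM of col14a1a, below 83.8 to 88.1 CPM. Mutant 2 had 501 CPM of col18a1, above 427 to 446 CPM. Control 6 had 5.26 CPM of col24a1, below 5.91 to 6.12 CPM in the other controls. The remaining 3 were of type X genes near the limit of detection: mutant 6 had 0.382 CPM of col10a1a, above 0.0278 to 0.0322 CPM in the other mutants, control 4 had 0.339 CPM of col10a1a, above 0 to 0.0555 CPM in the other controls, and control 6 had 0.0974 CPM of col10a1b, above 0 to 0.0282 CPM.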

How the results depend on the processing

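The count of collagens called was 0 in the 18 alternatives to the unblocked fit, and likewise under the replicate block when any of the 5 pairs was left out. Over all genes the count was 1, and it was 6 with DESeq2, 2 with limma-trend on FPKM at a pseudocount of 1, 0 with limma-trend at 0.1, 53 with the replicate block, 93 with the block in DESeq2, and 0 to 3 without single libraries (0 without mutant 3 or control 2, 3 without control 6). Under the block it was 17 without pair 1 or pair 2, 21 without pair 3, 365 without pair 4 and 79 without pair 6. Of the genes that process or bind collagen, 0 were called in the unblocked fit, 1 with the replicate block and 2 with the block in DESeq2, and without single pairs the blocked count was 1 to 4, with 4 without pair 4 (p4ha1b, tgm2b, itga11a and fn1b). The median log2 fold change of the tested collagens lay between -0.027 and 0.051 over the alternatives. The summed collagen level differed by -0.48% (mutants over control siblings), by -0.72 to 1.06% under other scalings and by -3.52 to 3.31% without single libraries, lowest without control 1 and highest without control 4; without control 6 it was 3.30%. Of 684 values of the 38 members named in full, 112 changed sign, in 28 members; in 2 of them a value was larger than its standard error. These were col5a3b, with -0.0030 to 0.18, and col7a1, with -0.11 to 0.055, without single libraries. For col5a3b the main value of 0.12 exceeded its standard error of 0.116. The col5a3b value that changed sign, -0.0030 without mutant 2, was smaller than its standard error of 0.0893. For col7a1 the changed value of -0.11 without mutant 2 exceeded its standard error of 0.0866. Among the collagens the replicate block changed no call. Depth limits the type X genes and col8a1b, which had too few counts for a test.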

Other observations

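Serpinh1b, which codes for the collagen chaperone Hsp47, varied with the replicate number in the direction of col28a2a. It had 191, 346, 479.5, 119 and 163 CPM in mutants and 144, 374, 437, 118 and 201 CPM in control siblings. Libraries 2 and 3 were highest and library 4 lowest in both groups, and the groups overlapped (log2 fold change 0.029, unadjusted edgeR p 0.946). Its duplicate serpinh1a averaged 148 ± 10.6 CPM in mutants and 149.6 ± 7.28 CPM in control siblings (SD, n = 5 each).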
